A study of Mus musculus with 40 samples.

Results

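Spi1 encodes PU.1, an ETS family transcription factor, and the enhancer fragments of its locus were examined in a reporter screen of mouse blood cell development. The members were all fragments with their centre in the Spi1 gene body (chr2:91082405-91115759, mm10) or within 25 kb of it, and overlapping fragments were merged into regions. This gave 9 regions with 88 distinct fragments, of 75060 regions and 354627 distinct fragments in the whole screen. A fragment can occur in several libraries, and counted in each library the locus held 108 of 458486 entries.

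In this screen, pieces of open chromatin released by Tn5 were each joined to a minimal HSP68 promoter driving Venus-YFP, and the constructs were placed at the Hprt locus of HM-1 embryonic stem cells (129/ola strain), so that each cell carried a single fragment. The pool of cells was differentiated in serum, and cells were collected as ES (embryonic stem cells), as HB (hemangioblast), as HE1 and HE2 (hemogenic endothelium, first and later) and as HP (hematopoietic progenitor). Each stage was sorted by YFP into the Negative, Low, Medium and High gates, which with 2 replicates gave 40 libraries in 20 groups of 2. All groups share the reporter cassette, the repaired Hprt locus and the drug selection for it. The culture differs by stage. Per the methods, ES cells were kept with LIF, and HB cells came from embryoid bodies in serum medium. HE1, HE2 and HP cells came from a later blast culture with VEGF, IL-6 and D4T conditioned medium. Stage and culture therefore cannot be told apart. The libraries hold DNA inserts and no RNA, so the labelled stages could not be checked against marker genes. The cells of a stage in a replicate are called a sort, which makes 10 sorts. Positive fragments of a sort are those found in its Low, Medium or High gate, and negative fragments are those found in its Negative gate, so a fragment can be both.

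PU.1 is required for myeloid and B cells, and its level in a progenitor bears on the lineage the cell takes. The gene is known for distal control elements, the best studied of which is the upstream regulatory element (URE), bound in blood cells by RUNX1 and by PU.1 itself. An enhancer fragment in a reporter acts outside its own chromatin, so the assay reads what a short stretch of sequence can do in front of another promoter.

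The regions are named by the distance of their centre from the Spi1 transcription start at position 91096678. The 300 bases around the centre are shown from the mm10 reference for 3 regions on which the results turn. Capitals mark matches, on either strand, to motifs of factors that act in blood development. The PU.1/ETS motif was searched as GAGGAAG, the RUNX motif as TGTGGT, and the GATA motif as AGATAA. The E-box, which TAL1 and its partners bind, was searched as CAGCTG and the C/EBP motif as TTGCNNAA. AP-1 was searched as TGAGTCA or TGACTCA. The TEAD motif was searched as GGAATG and the SOX motif as ACAANG.
-35.4 kb, chr2:91061093-91061392, plus strand: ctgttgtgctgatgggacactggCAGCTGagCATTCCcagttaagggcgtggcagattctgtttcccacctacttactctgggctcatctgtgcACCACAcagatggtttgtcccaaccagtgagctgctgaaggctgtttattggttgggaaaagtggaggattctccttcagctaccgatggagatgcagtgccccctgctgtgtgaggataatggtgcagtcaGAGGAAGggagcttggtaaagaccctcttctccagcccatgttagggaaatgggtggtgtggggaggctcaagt
-13.7 kb, chr2:91082839-91083138, plus strand: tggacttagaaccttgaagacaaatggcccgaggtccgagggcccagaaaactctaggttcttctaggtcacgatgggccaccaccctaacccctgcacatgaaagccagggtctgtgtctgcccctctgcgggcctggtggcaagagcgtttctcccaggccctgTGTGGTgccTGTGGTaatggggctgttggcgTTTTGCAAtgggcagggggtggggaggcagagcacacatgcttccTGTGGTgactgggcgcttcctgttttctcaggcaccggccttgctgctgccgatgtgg
+4.9 kb, chr2:91101433-91101732, plus strand: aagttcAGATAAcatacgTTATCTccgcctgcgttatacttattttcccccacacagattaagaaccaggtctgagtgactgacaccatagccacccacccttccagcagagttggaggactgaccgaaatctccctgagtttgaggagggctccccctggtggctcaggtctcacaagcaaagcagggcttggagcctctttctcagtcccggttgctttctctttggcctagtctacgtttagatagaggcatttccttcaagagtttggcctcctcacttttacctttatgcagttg
No match overlapped a match of another motif. The window at -13.7 kb held 3 RUNX matches and a C/EBP match, and the window at +4.9 kb held 2 GATA matches. The PU.1/ETS letters searched were not found in the -13.7 kb window. Other forms of the ETS motif were not searched, so this does not show that the window lacks such a site. The window at -35.4 kb held a PU.1/ETS, a RUNX, an E-box and a TEAD match. Of the 75043 windows of the same length around the regions on assembled chromosomes, 23.3% held a RUNX match, 11.2% a C/EBP, 16.3% a GATA, 19.7% an E-box, 14.8% a PU.1/ETS, 18.7% a TEAD, 9.77% an AP-1 and 49.9% a SOX match. Matches to single motifs of this kind are therefore common in the screen. These shares are of windows with any match, and windows with several RUNX or several GATA matches were not counted. The GC content was 60.0% at -13.7 kb, 53.3% at -35.4 kb and 49.7% at +4.9 kb, and the median over all windows was 49.3%.

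**Figure D1:**
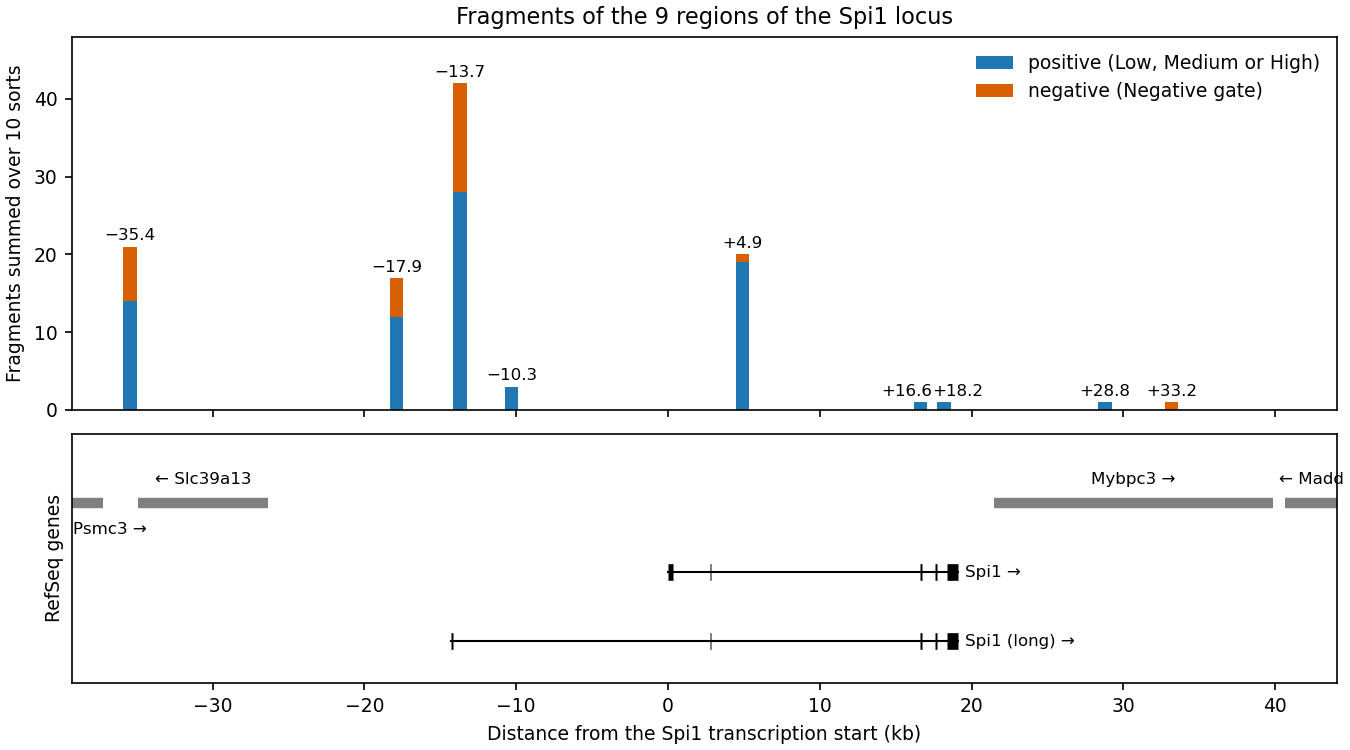
Positive and negative fragments, summed over the 10 sorts (bars, upper panel), of the 9 regions against the distance in kb from the Spi1 start, with RefSeq genes below (thick, exons of Spi1; grey, neighbouring protein-coding genes; arrows, direction). The tallest bar stands at -13.7 kb with 28 positive and 14 negative fragments, and nothing stands at the start itself.

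Of the 9 regions, 2 lay upstream of all Spi1 transcripts. The region at -35.4 kb (chr2:91060940-91061545) was intergenic, between Psmc3, a proteasome subunit gene, and the zinc transporter gene Slc39a13. The region at -17.9 kb was intergenic, upstream of a long Spi1 isoform, whose first exon lies at 91082405 to 91082523. The regions at -13.7 kb (chr2:91082606-91083370) and -10.3 kb (chr2:91086244-91086505) lay in intron 1 of that isoform and upstream of the starts of the other Spi1 transcripts. The centre of the -13.7 kb region was 583 bp from the start of the long isoform, and of the 9 regions it is the one near which the URE is known to lie. The region at +4.9 kb (chr2:91101352-91101812) lay in intron 2. A fragment at +16.6 kb (chr2:91113162-91113477) covered exon 3, and a fragment at +18.2 kb (chr2:91114787-91114959) lay in intron 4. The last 2 regions, at +28.8 kb (chr2:91125307-91125669) and +33.2 kb (chr2:91129781-91129931), had their centres in introns of Mybpc3, the gene of a cardiac myosin-binding protein downstream of Spi1, and the former also touched an exon. No fragment had its centre within 1500 bp of the starts at 91096678 and 91096700, a distance the study's methods use to set promoter fragments apart.

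Most locus fragments came from replicate 1. Its 20 libraries held 4869 to 51146 fragments, and 18 of them had a locus fragment, 100 of 361181 fragments in all, or 2.77 per 10000 (95% Wilson interval 2.28 to 3.37). The 20 libraries of replicate 2 held 654 to 31915 fragments, and 6 of them had a locus fragment, 8 of 97305 in all, or 0.822 per 10000 (0.417 to 1.62). The locus was thus less frequent in replicate 2 per fragment as well as in number, and the intervals, which cover counting error only, do not overlap. In replicate 2 the limit that a count of 0 allows (3 fragments) was 0.940 to 45.9 per 10000 in a library, so an absence there was mostly not informative. In HE1 of replicate 1 the Negative and Medium libraries shared many fragments, namely 69.8% of all fragments of the Negative library and 9 of its 16 locus fragments, so results are also given without that sort.

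By stage, counted over all gates of both replicates, the ES libraries held 6 locus fragments (1.15 per 10000), HB 12 (1.82), HE1 46 (2.47), HE2 19 (2.22) and HP 25 (3.64). The Wilson intervals of neighbouring stages overlapped, and those of ES (0.528 to 2.51) and HP (2.46 to 5.37) met at their ends. These stage rates pool replicates with unlike locus rates, which take different shares of the stages. The HE1 number also counts fragments shared by its Negative and Medium libraries in each of them. By gate, in replicate 1, the rate was 3.12 per 10000 in the Negative libraries, 2.94 in Low, 2.44 in Medium and 2.78 in High. In replicate 2 the rates were 1.52, 0.459, 0.760 and 0.700, from 4 fragments or fewer in each gate. In replicate 1 the Wilson interval of each gate held the rates of the other gates. In replicate 2 this was so except that the Negative interval (0.591 to 3.91) lay above the Low rate of 0.459. Pooled over replicates, which take different shares of the gates, the rates were 2.71, 1.94, 2.27 and 2.52.

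**Figure D2:**
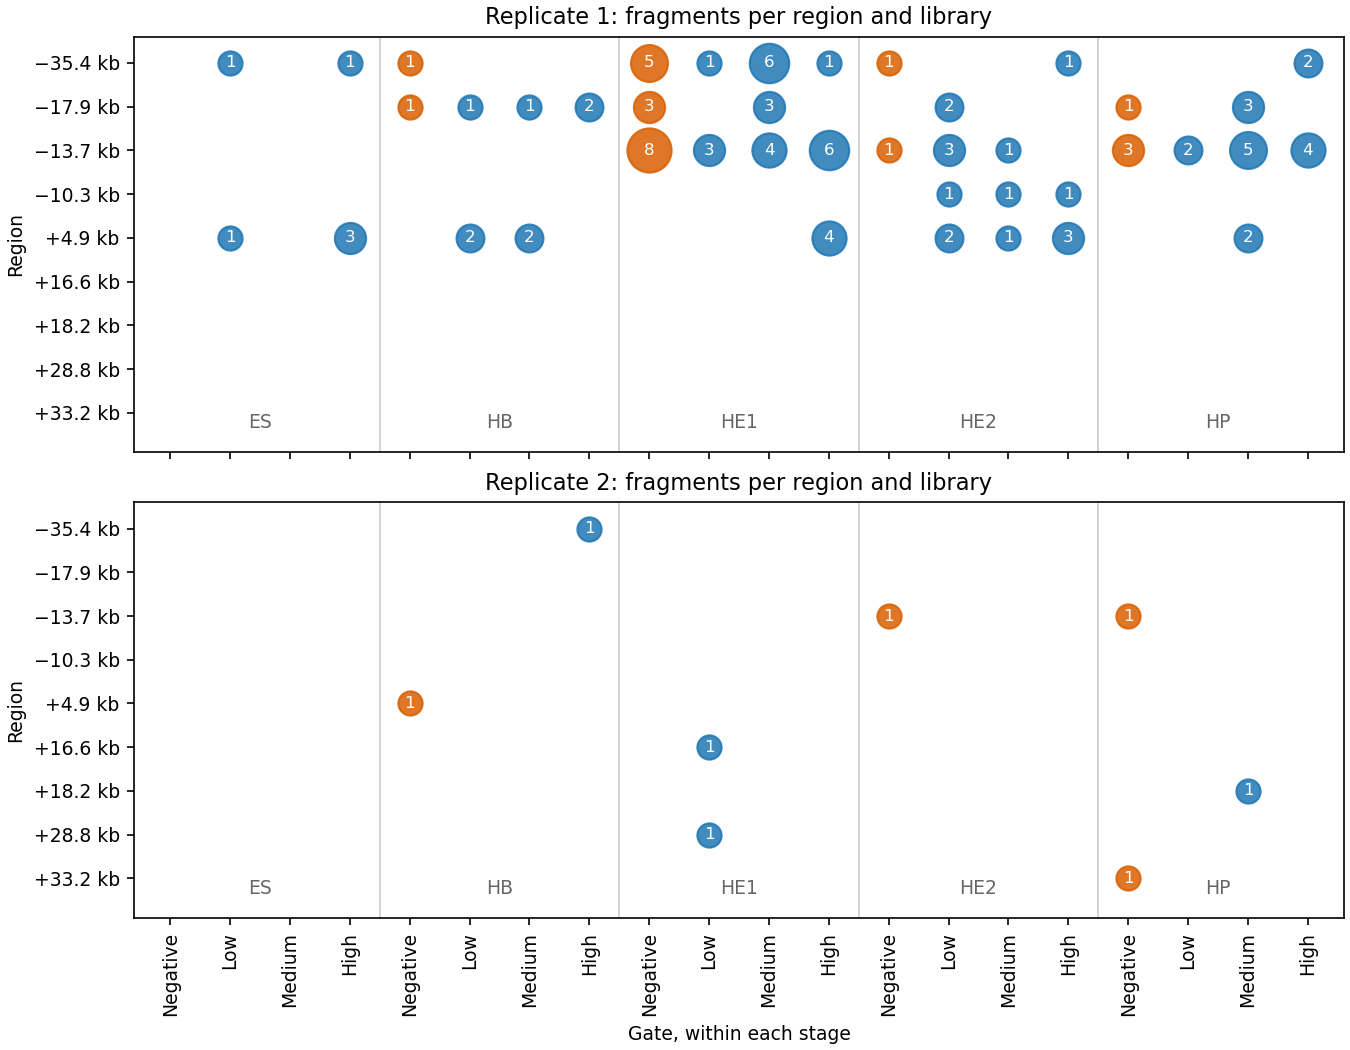
Number of fragments (in the circles, whose area grows with it) of each region (rows) in each library (columns, gates within stages) of replicate 1 and replicate 2; orange marks the Negative gate and blue the Low, Medium and High gates. The -13.7 kb region is empty at ES and HB in both replicates, and the +4.9 kb region has orange only in HB of replicate 2.

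The region at -13.7 kb was the largest, with 37 distinct fragments and 42 entries, 28 positive and 14 negative. In replicate 1 its positive fragments numbered 13 at HE1, 4 at HE2 and 11 at HP, or 1.28, 0.585 and 2.77 per 10000 positive fragments. There were none at ES or HB, where a count of 0 allows up to 1.08 and 0.770. These limits lie below the positive rates at HE1 and HP but above that at HE2. The Wilson interval at HE1, 0.745 to 2.18, reaches below both limits, and that of the 0 at ES reaches up to 1.39. An early rate like that at HE2 could therefore have been missed, and at ES also one like that at HE1. The negative fragments of the region numbered 8 at HE1 (1.93 per 10000 negative fragments), 1 at HE2 (1.19) and 3 at HP (3.55), with none at ES or HB. There a count of 0 allows up to 2.90 and 3.56 per 10000, above the negative rates at HE1 and HE2 and near that at HP, so an early absence of negative fragments was not detectable at this depth. At HE1, HE2 and HP the region was seen in YFP-negative as well as in YFP-positive cells. In replicate 2 it gave 2 fragments, both from Negative libraries, at HE2 and HP. In HE1 of replicate 1 the gates held 8 Negative, 3 Low, 4 Medium and 6 High fragments, and in HP 3, 2, 5 and 4. At HE2 there were 1 Negative, 3 Low, 1 Medium and no High fragments.

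The fragments of this region were staggered over 765 bp. A stretch of 2 bases, 91083114 to 91083115, lay in 26 of the 37 fragments (70.3%), and 6 fragments shared the end 91083158. The 3 RUNX matches, which stand at 20, 28 and 96 bp after the region's centre, lay whole in 16, 16 and 21 of the 37 fragments. Of the 16 fragments with the first of them, 12 were seen in a positive gate and 5 in the Negative gate. The C/EBP match lay in 20 fragments, of which 16 were seen positive and 5 negative. Fragments with and without a match were found on both sides of the sort. Of the 37 fragments, 23 occurred in positive libraries only, 11 in Negative libraries only and 3 in both.

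The region at +4.9 kb was composed otherwise. It had 16 distinct fragments and 21 entries, and 19 of the 20 fragments counted per sort were positive (95.0%). In replicate 1 it was positive at all 5 stages, with 4 fragments in each of ES, HB and HE1, 5 in HE2 and 2 in HP, or 1.44, 1.03, 0.392, 0.731 and 0.504 per 10000. None of the 5 Negative libraries of replicate 1 held it. The limit for a count of 0 in these was 2.90, 3.56, 0.725, 3.56 and 3.55 per 10000, above the positive rate at every stage, so the depth of the Negative libraries did not show a difference at any stage alone. The single negative fragment came from HB of replicate 2, in which no positive library held the region.

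Of the 20 entries of the +4.9 kb region in positive gates, 5 were Low, 5 Medium and 10 High. The share of High was 50.0% (Wilson interval 29.9 to 70.1%), against 32.4% of all entries in positive gates, a value inside that interval. In HE1 all 4 were in the High gate, and in ES 3 of 4. In HB and HP none was. The fragments were short, 73 to 215 bp with a median of 120 bp, and 15 of 16 (93.8%) shared the 9 bases from 91101556 to 91101564. The 2 GATA matches of the printed window lay outside this stretch, in 2 of the 16 fragments each, 1 of which was the negative one.

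Some inserts of the +4.9 kb region came back at several stages. The fragment at chr2:91101535-91101679 was found in 4 libraries of replicate 1, HB Medium, HE1 High, HE2 Medium and HE2 High. That at chr2:91101545-91101630 was found in HE1 High and HE2 High, and that at chr2:91101661-91101812 in ES High and HE1 High. These 3 inserts were never found in a Negative library. The stages of a replicate come from the same pool of transfected cells, so repeats across stages are not independent observations.

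**Figure D3:**
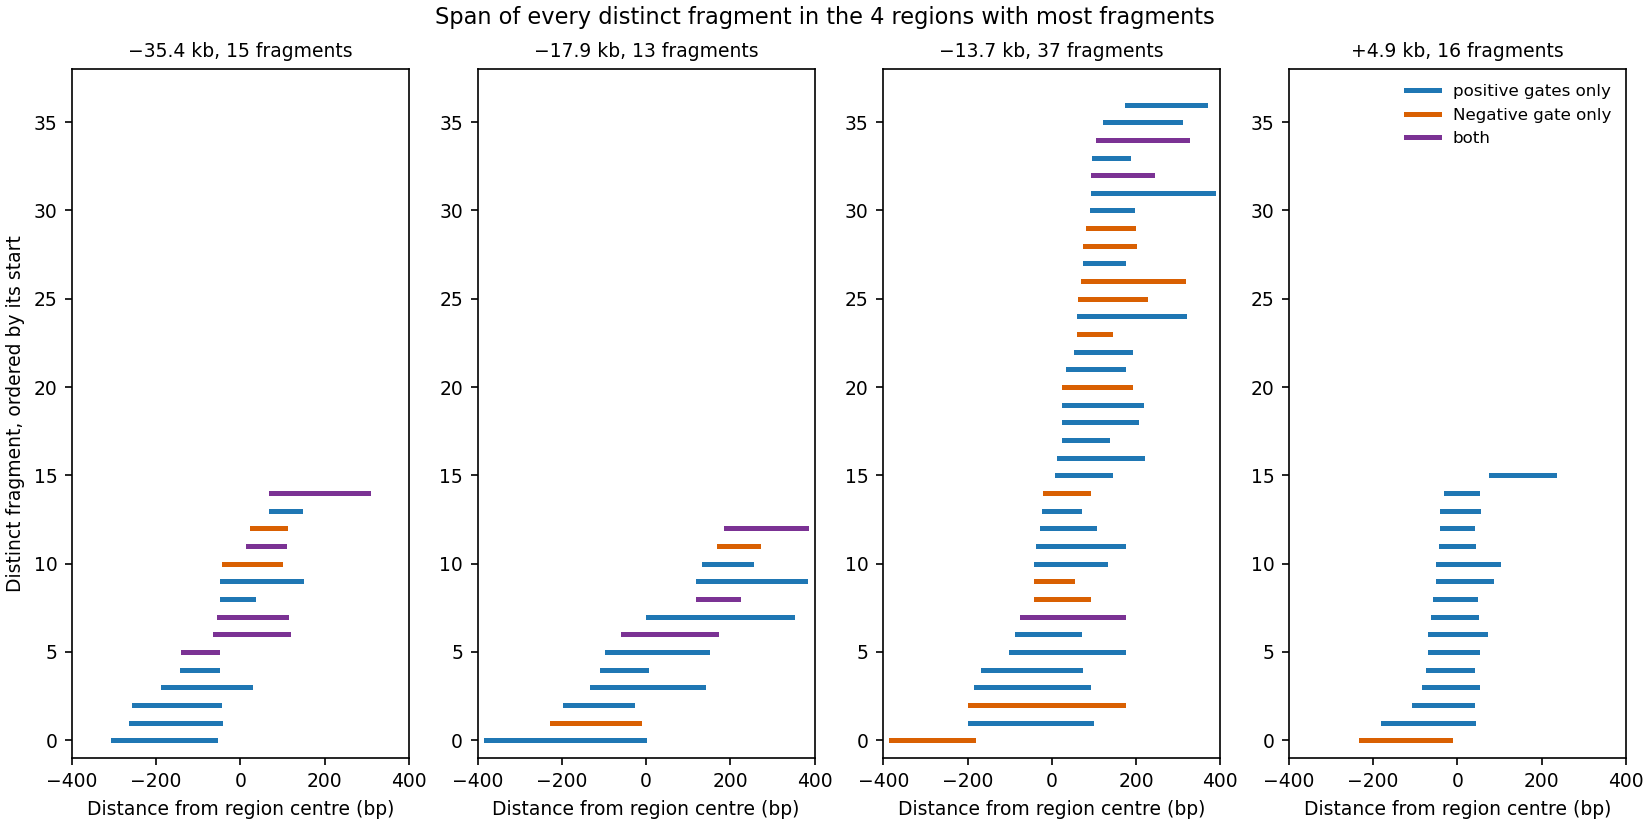
Span of each distinct fragment (line) of the 4 regions with most fragments against the distance in bp from the region's centre, ordered by start and coloured by the gates in which it was found. At +4.9 kb 15 of 16 lines pass the same 9 bases, and at -13.7 kb blue and orange lines lie over the same stretch.

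The region at -35.4 kb had 15 distinct fragments and 21 entries, 14 positive and 7 negative. In replicate 1 it gave 8 positive fragments in HE1, 2 in each of ES and HP and 1 in HE2. Negative fragments numbered 5 in HE1 and 1 in each of HB and HE2. In replicate 2 it gave 1, in the High gate of HB. All 5 of the negative fragments at HE1 were also in the Medium library of the same sort, the pair of libraries that shared 69.8% of the Negative one. The PU.1/ETS match lay in 8 of the 15 fragments, 6 of which were seen positive and 6 negative. The E-box and the TEAD match lay in 6, all of them seen positive and 1 of them also negative.

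The region at -17.9 kb had 13 distinct fragments and 17 entries, all from replicate 1, 12 positive and 5 negative. It was not found at ES. The positive fragments numbered 4 in HB, 3 in each of HE1 and HP and 2 in HE2. Negative ones numbered 3 in HE1 and 1 in each of HB and HP. Of the 5 negative fragments, 3 were also positive in the same sort, 2 of them in HE1 and the other in HB. Of the 12 entries in positive gates, 3 were Low, 7 Medium and 2 High.

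The other 5 regions held 7 fragments. The 3 fragments at -10.3 kb all came from HE2 of replicate 1, 1 each from Low, Medium and High, and they shared 71 bases. The fragments at +16.6, +18.2, +28.8 and +33.2 kb each came from a single library of replicate 2, HE1 Low, HP Medium, HE1 Low and HP Negative. Thus 8 of the 9 regions had a positive fragment in some sort, those at +16.6, +18.2 and +28.8 kb by a single one. In the whole screen 76.8% of fragments counted per sort were positive. The share of all regions with a positive fragment was not counted. The number of positive regions in replicate 1 was 2 in each of ES and HB, 4 in each of HE1 and HP and 5 in HE2. In replicate 2 it was 2 in HE1 and 1 in each of HB and HP, each region by 1 fragment. No region was positive in both replicates at the same stage. With so few fragments in replicate 2 an overlap was unlikely to be seen, and its share over all regions was not counted either.

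Across the locus, 60 distinct fragments were found in positive libraries only, 17 in Negative libraries only and 11 in both. Of the 88, 72 were found in 1 library and 16 in several. None was found in both replicates, but replicate 2 gave only 8 locus entries. The share of all fragments of the screen found in both replicates was not counted, so this is no trait of the locus. Of the 16, 8 were shared by the HE1 Negative and Medium libraries of replicate 1 alone. The median length was 152 bp, and that of all distinct fragments of the screen was 180 bp.

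The first comparison asked whether the locus as a whole was more frequent among positive than among negative fragments. In replicate 1 it took 2.16, 2.05, 2.75, 2.19 and 4.54 per 10000 positive fragments at ES, HB, HE1, HE2 and HP, and 0, 2.37, 3.87, 2.37 and 4.73 per 10000 negative fragments. In replicate 2 the positive rates were 0, 0.819, 0.575, 0 and 1.92, and the negative rates 0, 3.27, 0, 3.67 and 1.34. The positive rate was higher in 3 sorts, lower in 6 and equal, at 0, in ES of replicate 2. The means over sorts were 1.70 ± 1.40 positive and 2.16 ± 1.76 negative (SD, n = 10). The mean difference of -0.461 per 10000 was within the spread between sorts (SD 1.64, n = 10, two-sided exact permutation p = 0.398). It was -0.388 without HE1 of replicate 1 (exact permutation p = 0.539) and turned to 0.0704 without replicate 2 (exact permutation p = 1.00). Of all fragments counted per sort, 73.8% were positive in the locus (79 of 107) and 76.8% in the whole screen.

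**Figure D4:**
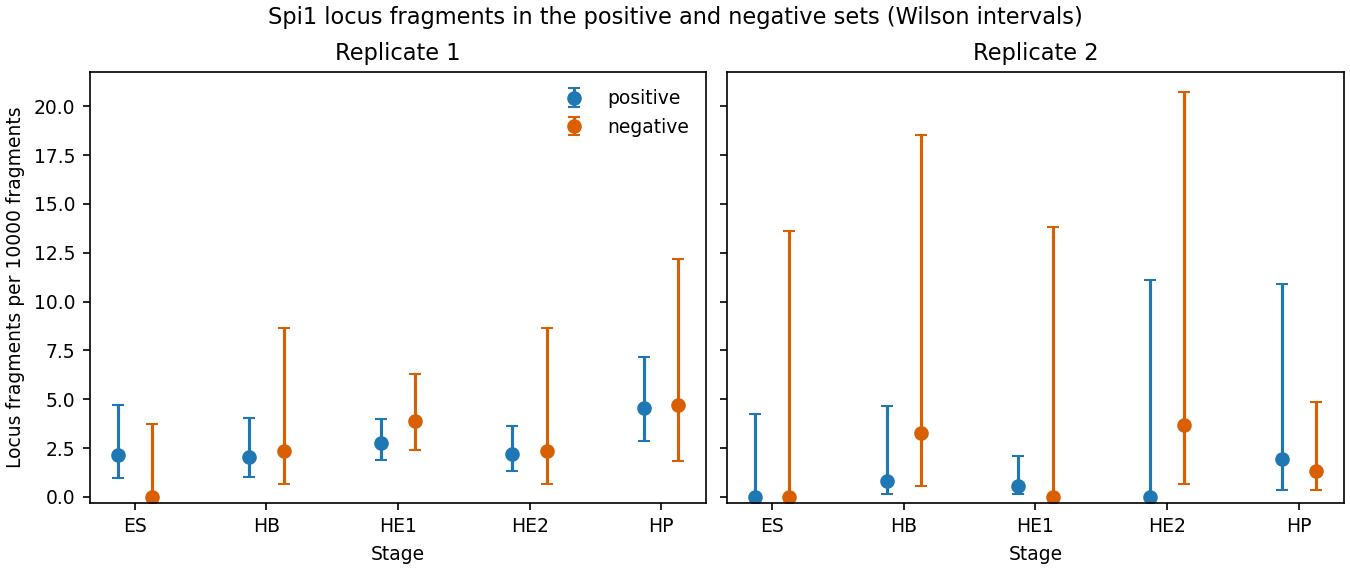
Spi1 locus fragments per 10000 fragments of the positive (blue) and negative (orange) set of each stage in replicate 1 and replicate 2; points are the sorts and bars are 95% Wilson intervals for counting error. The intervals of the sets overlap at every stage, and those of replicate 2 are wide.

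The second comparison set the positive fragments of the late stages (HE1, HE2 and HP) against the early stages (ES and HB). The locus took 2.00 ± 1.62 per 10000 in the 6 late sorts and 1.26 ± 1.04 in the 4 early sorts (SD). The difference, averaged over the replicates, was 0.736 per 10000 and was not larger than the spread (two-sided exact permutation p = 0.290). It was 0.839 without HE1 of replicate 1 and 0.391 without HP of replicate 1. Without the fragments within 1500 bp of an annotated start, which were exactly the 42 entries of the -13.7 kb region, it was -0.0364 (exact permutation p = 0.960). The 0.736 thus came from the -13.7 kb region. The third comparison set the High against the Low gate within each sort. High libraries held 1.59 ± 1.57 and Low libraries 1.64 ± 1.71 per 10000 (SD, n = 10), a difference of -0.0441 (two-sided exact permutation p = 0.938), with 3 sorts higher and 4 lower in High.

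For single regions, positive and negative fragments were compared by a Cochran-Mantel-Haenszel (CMH) test, stratified by sort, over all 5530 regions of the screen with at least 20 fragments, and 10 of them (0.181%) passed an adjusted p of 0.05 in either direction. Of the Spi1 regions, 3 were deep enough to be tested and none passed, nor did any have an unadjusted p under 0.05. At +4.9 kb, 19 positive fragments were observed and 15.9 expected, an odds ratio of 4.82 with an interval from 0.654 to 35.5 (CMH adjusted p = 1.00, unadjusted p = 0.149 over the 10 sorts). At -13.7 kb, 28 were observed and 31.7 expected, an odds ratio of 0.620 (0.317 to 1.21, CMH adjusted p = 1.00). At -35.4 kb, 14 were observed and 15.8 expected, an odds ratio of 0.667 (0.270 to 1.65, CMH adjusted p = 1.00). Each of these intervals includes odds ratios on both sides of 1. Without the fragments that were both positive and negative in a sort, the odds ratio at -13.7 kb was 0.441, with an interval from 0.210 to 0.924 (CMH unadjusted p = 0.0502, adjusted p = 0.965), and at +4.9 kb it was 3.69 (0.504 to 26.9, CMH adjusted p = 1.00). The median share of positive fragments over all regions tested was 77.7%, against 95.0%, 66.7% and 66.7% for these regions.

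The late and early stages were compared per region with limma on log2(positive fragments per 10000 + 1), and 0 of 5530 regions (0%) passed, with 632 at an unadjusted p under 0.05. At this depth a count of 0 does not show that the stages were alike. At -13.7 kb the late minus early difference was 0.63 ± 0.29 on this log2 scale (SE, limma unadjusted p = 0.0506, adjusted p = 0.438). At +4.9 kb it was -0.27 ± 0.16 (SE, limma adjusted p = 0.545), and at -35.4 kb -0.14 ± 0.24 (SE, limma adjusted p = 0.847). The median over all regions was 0.01. Whether the stage pattern at -13.7 kb stems from the reporter was not tested, since the methods describe a restriction to fragments in open chromatin of the matching stage, and the sources used here do not state whether it had been applied to these lists.

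Other genes of the PU.1 pathway were compared by the fragments in their gene body or within 25 kb. For gene windows, 4 of 8014 (0.0499%) passed the CMH test of positive against negative fragments and 0 of 8014 (0%) the limma comparison of late against early stages, with 273 and 538 at an unadjusted p under 0.05. The Spi1 window itself had 79 positive and 28 negative fragments (odds ratio 0.853, CMH adjusted p = 1.00) and a late minus early difference of 0.34 ± 0.34 (SE, log2 scale, limma adjusted p = 0.851). Among 7 genes of factors known to bind Spi1 control elements, all 7 could be tested, and 0 passed either test in either direction. Runx1, the master regulator of the passage from endothelium to blood, had 146 positive and 35 negative fragments and was positive in all 10 sorts. Gata2, a factor of blood stem and progenitor cells, had 116 and 27, and was also positive in all 10. Cebpa, the gene of a myeloid factor, had 22 positive and no negative fragments, from 3 sorts, all of them late (late mean 1.86 per 10000), and its late minus early difference of 0.98 ± 0.49 (SE, log2 scale) did not pass (limma adjusted p = 0.742). Fli1, an ETS factor of endothelium and blood, had 43 positive and 10 negative fragments, and Tal1, which is needed for the first blood cells, had 94 and 29. Elf1 had 43 and 8, and the immediate early gene Egr1 had 114 and 31. The share of positive fragments had a median of 81.1% over these 7 windows and of 77.3% over all windows tested.

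Of 11 genes of PU.1 partners and targets, 5 had the 20 fragments needed, and 0 passed either test. Irf8, whose product binds DNA together with PU.1, had 29 positive and 13 negative fragments, and Csf1r, the receptor for the macrophage growth factor, 41 and 11. Cebpb had 72 and 20, Jun 26 and 6, and the macrophage marker gene Cd68 18 and 5. Their median share of positive fragments was 78.3% and their median late minus early difference 0.04 on the log2 scale, against -0.04 over all windows. The other 6 could not be tested, with 3 fragments or fewer for Irf4, Csf2ra, Csf3r, Itgam and Il7r, and 13 positive and 4 negative for Fcgr3. The Spi1 window, with its 108 entries, held more entries than 92.8% of the 21774 windows of protein-coding genes, whose median was 9.

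Over the 30 Low, Medium and High libraries, the 5 genes whose window rates ranked libraries most like Spi1 included Agrp (Spearman rho 0.890), Mknk1 (0.879), Ubxn6 (0.832) and Hdgfl2 (0.828), out of 1814 genes with at least 100 entries. The windows of Ubxn6 and Hdgfl2 overlap and share fragments. The Spi1 window was at 0 in 13 of the 30 libraries, and all windows share the libraries and their depth. The median rho over the 1814 genes was 0.408, and 5% of them had a rho above 0.689.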

How the data were processed

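Inserts of 40 libraries were sequenced as read pairs after 25 to 30 PCR cycles. Per the submitters' processing notes and the methods, the authors trimmed the reads (Trim Galore), aligned them to mm10 (Bowtie2) and reduced repeats to unique fragments; tool versions are not given in the sources used here. The authors deposited fragment coordinates only, 1 list per library, with no other value than the position (start and end, base pairs) and no read number, so depth is the number of fragments, and intervals (Wilson, 95%) and limits for a count of 0 (3 fragments) cover counting error only. PCR without molecular identifiers does not give independent molecules.

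Libraries were grouped by title. Regions were runs of fragments overlapping by at least 1 base. Genes and sequences came from RefSeq on GRCm38.p6, the assembly of mm10. Rates were compared with exact permutation tests within sorts or replicates, and regions with a Cochran-Mantel-Haenszel test (10 strata) or limma 3.58.1 (R 4.3.3, pseudocount 1, replicate as covariate), with Benjamini-Hochberg adjustment; both were tested on simulated data, in which at this depth limma missed most of the changed regions and CMH most of those made lower, so that a region that did not pass may still differ. Replicate numbers pair the samples because, per the methods, the stages of a replicate derive from the same transfected cells. The labels do not say that replicates came from separate transfections. The permutation and limma p-values therefore measure only the spread between these samples, which may be technical. The CMH p-values and odds ratio intervals take fragments within a sort as the units. They cover counting error only and not the spread between sorts. Regions with at least 10 fragments were described one by one. A sequence and a gene are not reported here. The members, motifs and gene lists were chosen with earlier results of these data known, and the tests on gene windows were added after seeing the data. Alternatives collapsed fragments with both ends within 5 bp, left out sorts, replicates, fragments both positive and negative or fragments near a start, and changed the gates, window, minimum, pseudocount and overlap.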

Additional observations from a re-analysis of the deposited data

How the results depend on the processing

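The depth limits what can be said here: 100 of the 108 entries came from replicate 1, and 3 of 9 regions could be tested one by one. No other setting brought a Spi1 region past the threshold, by CMH, by limma on positive and negative rates (which called 0 of the 5530 regions where CMH called 10, with 313 and 191 at an unadjusted p under 0.05) or by limma on stages. The causes of the shifts given next were not tested. The positive minus negative rate of the locus ran from -0.993 to 0.0704 per 10000 when sorts or replicates were left out, was 0.176 without fragments within 1500 bp of a start, and was -1.02 (exact permutation p = 0.324) without the fragments that were both positive and negative in a sort. The late minus early difference ran from 0.391 to 1.05, and was -0.0364 without the fragments within 1500 bp of a start. The High minus Low difference ran from -0.300 to 0.261, and was 0.275 without them. With no replicate block the 3 values stayed at -0.461, 0.736 and -0.0441 (exact permutation p = 0.488, 0.495 and 0.963), and no call changed. The number of regions with a positive fragment was 4 to 8 when sorts or replicates were left out (4 without replicate 1, 5 without replicate 2) and 5 when at least 2 positive fragments were asked for. An overlap of 50 bases split the fragments into 11 regions. At -13.7 kb, observed over expected positive fragments ran from 0.841 to 0.905 when sorts or replicate 2 were left out.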
